A study of Mus musculus with 4 samples.

Results

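RNA of cultured primary hepatocytes from mice without a working Dusp6 gene (KO) was set against that of wild-type mice (WT), both without added fatty acids. The series holds 4 RNA-seq libraries, 1 each for KO and WT hepatocytes with and without fatty acids (0.5 mM palmitic and 1 mM oleic acid, added for 24 h after 3 h of culture). The main comparison uses the 2 untreated libraries, labelled as primary hepatocytes of mouse liver and kept in serum-containing medium without the fatty acids. The KO group is labelled as Dusp6 knockout and the WT group as wild type. The design of the knockout allele, the strain, sex and age of the mice, the number of animals and any vehicle are not stated in these sources. Genes were taken into the comparison when their FPKM (reads scaled to transcript length and library size) reached 1 in either untreated library, which held for 11524 of the 45777 genes in the table. Just inside this limit the highest FPKM was 1.00009 and just outside it 0.999704, and 233 genes lay between 1.0 and 1.1.

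Dusp6 codes for a cytoplasmic phosphatase that removes phosphate from the kinase ERK and so closes a feedback loop on growth factor signalling. Hepatocytes carry out most of the metabolism of the liver and secrete most plasma proteins, and they lose part of this program within hours to days of culture. Fatty acids are broken down in their mitochondria and peroxisomes, largely under the nuclear receptor PPARα.

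The libraries held 85423156 reads for KO and 87272191 reads for WT. Since each group has 1 library, no difference between the untreated libraries has a replicate check or a test; 1 fit over all 4 libraries is given with the fatty acid pair. A gene was called higher or lower when its log2(FPKM + 1) differed by 1 (2-fold) or more between KO and WT, and a difference is always KO minus WT on this scale. Ratios of reads scaled to library totals (CPM) carry exact 95% intervals, which cover counting error only. Among 5903 genes at an FPKM of 5 or more throughout the series, the median untreated difference was 0.00. All 10 hepatocyte markers were read in both libraries, with summed FPKM of 12947 in KO and 9377 in WT, and 0 of them were past 2-fold higher and 2 lower, namely Cps1 and Tat. Albumin (Alb) was at an FPKM of 4137 in KO and 2460 in WT. Reads of the Y-linked gene Ddx3y were found in both libraries (14395 in KO and 15405 in WT), while Xist had 0 reads in both.

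The targeted gene was checked first. Dusp6 (mm10 chromosome 10, 99263231 to 99267489) had 394 reads in KO and 11235 reads in WT, an FPKM of 1.42 in KO against 40.7 in WT. The KO library thus kept 3.58% of the WT level in CPM (ratio 0.0358, interval 0.0323 to 0.0396). Among the phosphatases that act on MAP kinases or share their fold, 1 of 16 compared genes was higher (Dusp16, 46.5 in KO and 20.5 in WT) and 1 was lower (Dusp5, 5.49 in KO and 18.4 in WT). Dusp4, another ERK phosphatase, was at 8.40 in KO and 9.23 in WT, within 2-fold. Dusp6 was left out of that list.

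In the untreated KO library, 426 genes were higher (3.7% of those compared) and 249 were lower (2.16%), so 5.86% lay past 2-fold either way. The median gene differed by 0.09, with quartiles of -0.21 and 0.39. A 4-fold difference was passed by 41 higher and 33 lower genes. Around the 2-fold limit, 165 genes lay between 1.0 and 1.1 and 236 between 0.9 and 1.0 on the log2 scale, either way. The split between higher and lower calls depended on scaling. On the deposited TPM, where the median gene differed by 0.37, 1248 genes were higher and 176 lower, and with quantile normalization 336 were higher and 317 lower. Lists of genes are therefore read against the median gene.

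**Figure D1:**
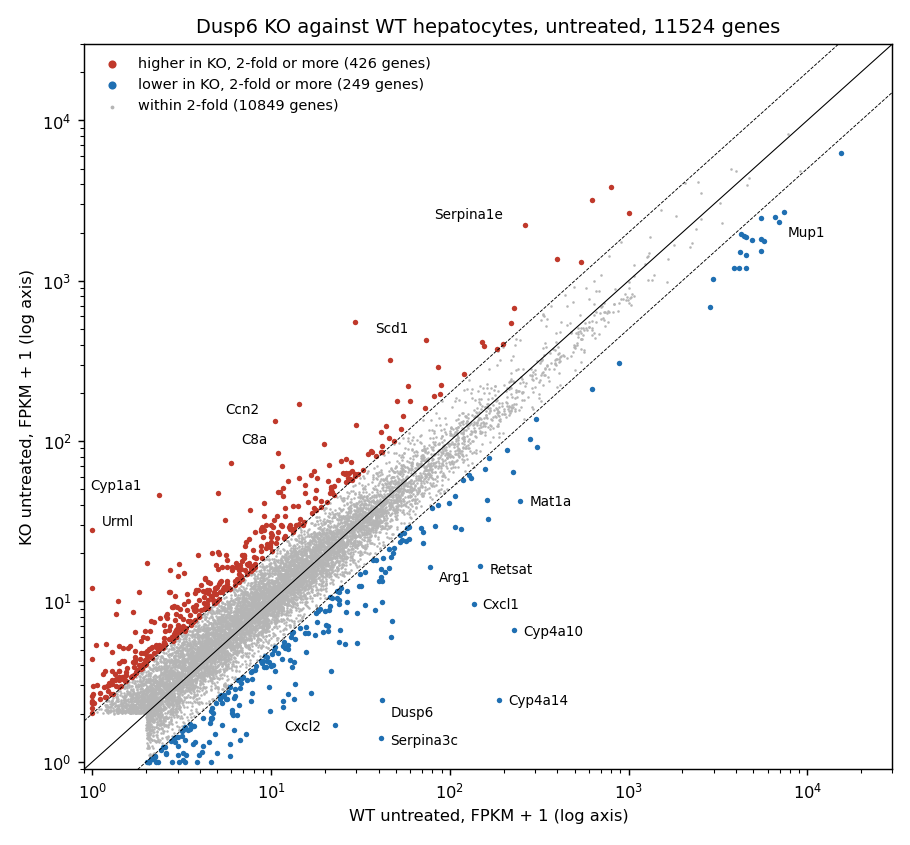
FPKM + 1 of 11524 genes in the KO library (vertical, log axis) and the WT library (horizontal, log axis), both untreated. Each point is a gene, the solid line marks equal values and the dashed lines mark 2-fold on this scale; 426 genes lie above the upper dashed line and 249 below the lower one, with Dusp6 and Cyp4a14 far below it.

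Called genes were not spread evenly over expression level. Of the 68 genes whose higher FPKM reached 1000, 19 were lower in KO (27.9%) and 6 were higher (8.82%). Among the 2228 genes between 10 and 20, 34 were lower (1.53%) and 93 higher (4.17%). The median difference was 0.10 between 10 and 20, -0.18 between 100 and 1000 and -0.34 at 1000 or more. Lists of abundant genes are thus to be read with this in mind. By chromosome, 45 of 750 compared genes on chromosome 4 were lower (6%), and of these 21 were major urinary protein genes or pseudogenes and 4 were Cyp4a genes. Without those families, 20 of 716 genes on that chromosome were lower (2.79%). The mitochondrial genome had 9 of 32 genes higher (28.1%) and 0 lower. Within 5 Mb of Dusp6, 1 of 18 compared genes was higher (Eea1, 5.56%) and 0 were lower. Within 10 Mb, 2 of 48 were higher (4.17%) and 3 lower (6.25%), among them the neighbouring genes Hal, higher, and Amdhd1, lower. Within 20 Mb, 6 of 204 were higher and 6 lower (2.94% each).

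The largest differences downwards involved enzymes of fatty acid ω-oxidation, peroxisomal enzymes, chemokines, methyl group metabolism and the urea cycle. Cyp4a enzymes hydroxylate fatty acids at their methyl end, and 8 genes of the family are in the table. Cyp4a14 (chromosome 4, 115486200 to 115496158) was at an FPKM of 1.43 in KO and 188 in WT, a difference of -6.28. Cyp4a10, its neighbour, was at 5.61 in KO and 228 in WT (-5.12). These were the lowest values of all named genes, and their CPM in KO was 0.00789 and 0.0253 of that in WT. Cyp4a32 was at 1.45 in KO and 12.4 in WT, and Cyp4a31 at 0.285 in KO and 4.89 in WT. Cyp4a12a, the testosterone-dependent copy in mouse liver, was higher, at 21.5 in KO and 8.83 in WT. Cyp4a12b, at 8.61 in KO and 4.49 in WT, stayed within 2-fold, and Cyp4a29 and Cyp4a30b had 0 reads in both. These copies are close in sequence, so the division of reads among them is uncertain. The family as a whole held 9099 reads in KO and 99891 reads in WT.

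Including 3 of the Cyp4a genes, 20 genes at each end of the ranking were named by rule. Below Serpina3c, Cxcl1, Cxcl2, Retsat, Ehhadh, Acot1 and Mup5 on the lower side came Mat1a, the liver S-adenosylmethionine synthetase (41.4 in KO and 247 in WT, -2.55), and Hcar2, a receptor for β-hydroxybutyrate and niacin (1.19 in KO and 10.6 in WT, -2.40). Igfbp2, a binding protein of insulin-like growth factors, was at 31.6 in KO and 163 in WT (-2.33). Il23a, a cytokine subunit, was at 0.367 in KO and 5.73 in WT (-2.30), with 50 reads in KO and 769 in WT. All of these were more than 4-fold lower in KO on this scale.

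The lower side was closed by genes that include Icam1, Arg1 and Ccl2, which are given with their pathways. Nr1i3, the xenobiotic receptor CAR, was at 1.63 in KO and 11.4 in WT (-2.24). The phenol sulfotransferase Sult1a1 was at 7.83 in KO and 37.1 in WT (-2.11). Cyp2b10, the classical CAR target of mouse liver, was at 17.9 in KO and 46.2 in WT (-1.32). It was the lowest of the 34 compared Cyp2 and Cyp3a genes, of which 10 were higher and 3 lower (median 0.61). A link between Nr1i3 and Cyp2b10 was not tested.

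On the higher side, the ranks after C8a and Cyp1a2 were led by Cyp21a1, the steroid 21-hydroxylase (10.4 in KO and 0.824 in WT, 2.64), and the stearoyl-CoA desaturase Scd1 (424 in KO and 72.3 in WT, 2.54). The vasopressin receptor Avpr1a, through which vasopressin raises calcium in hepatocytes, was at 31.1 in KO and 4.54 in WT (2.53). Npy, known as a neuropeptide, was at 14.7 in KO and 1.71 in WT (2.53), from 826 reads in KO and 96 in WT. Each of these was also higher with fatty acids. The ω-hydroxylase Cyp4f14 ran against the Cyp4a genes, at 16.2 in KO and 2.04 in WT (2.50). The nucleotide hydrolase Nudt18 was at 18.3 in KO and 2.89 in WT (2.32), and the selenium-binding protein Selenbp2 at 36.2 in KO and 6.57 in WT (2.30). Nudt18 stands out among the 20 because its difference with fatty acids was 0.00.

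**Figure D2:**
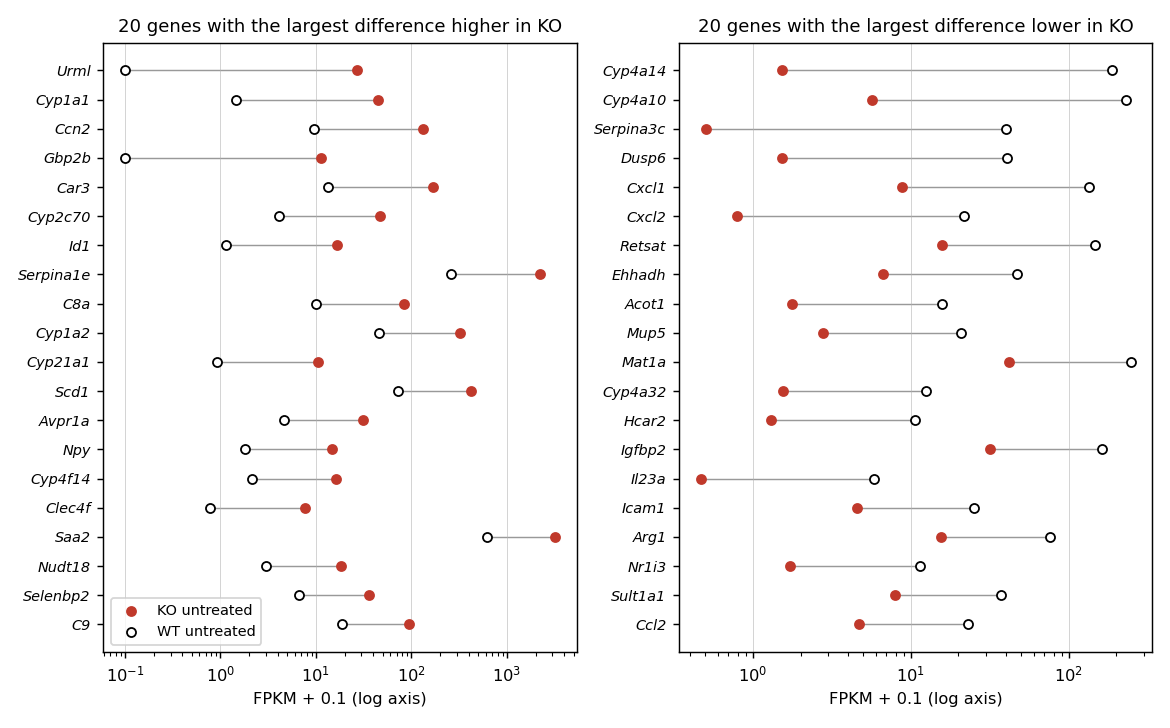
FPKM + 0.1 (log axis) of the 20 named genes with the largest difference in each direction, in the KO library (filled) and the WT library (open), untreated. Urml and Gbp2b had no read in WT and sit at the left edge of the left panel; on the right, Cyp4a14 has the widest gap, 1.43 in KO against 188 in WT.

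The 2 aryl hydrocarbon receptor targets Cyp1a1 and Cyp1a2 lie head to head on chromosome 9. The receptor binds dioxin-like ligands and the core sequence GCGTG. Cyp1a1 had 11742 reads in KO and 361 reads in WT (CPM ratio 33.2, interval 29.9 to 37.0), and Cyp1a2 had 60396 reads in KO and 8428 in WT (7.32, 7.16 to 7.49). No other of the 11 compared genes on the list of receptor targets was past 2-fold, and all 11 differences were above 0. The receptor gene Ahr itself was at 5.31 in KO and 2.86 in WT. The proximal promoters of both, from 250 bases before to 50 after the start in RefSeq on GRCm38.p6 (mm10), are shown because only the first holds GCGTG, in capitals.
Cyp1a1 (chr9:57697363-57697662, plus strand): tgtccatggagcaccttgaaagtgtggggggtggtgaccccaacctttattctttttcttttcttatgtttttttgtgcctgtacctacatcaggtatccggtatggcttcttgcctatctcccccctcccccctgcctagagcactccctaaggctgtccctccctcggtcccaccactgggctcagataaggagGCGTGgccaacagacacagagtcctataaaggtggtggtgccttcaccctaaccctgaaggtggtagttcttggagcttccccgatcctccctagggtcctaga
Cyp1a2 (chr9:57683606-57683905, minus strand): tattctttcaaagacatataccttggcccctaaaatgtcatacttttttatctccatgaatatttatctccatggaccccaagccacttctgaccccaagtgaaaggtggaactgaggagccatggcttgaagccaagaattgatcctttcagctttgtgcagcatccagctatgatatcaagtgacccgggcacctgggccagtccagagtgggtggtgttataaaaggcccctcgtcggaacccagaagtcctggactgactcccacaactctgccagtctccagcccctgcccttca
The match in Cyp1a1 starts at position -54 from the start site. GCGTG, searched on both strands, was in 44.6% of the 287 higher genes with a promoter, 37.3% of the 158 lower ones, 56% of the 8547 compared ones and 35.2% of all 27025 promoters. The longer form TNGCGTG was in 6.62% of the higher and 10.8% of the lower genes, against 9.83% of compared genes.

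Chemokines and cytokines had 2 of 21 compared genes higher and 9 lower, with a median of -0.50. Cxcl1, a neutrophil chemokine, had 820 reads in KO and 12707 in WT (8.64 in KO and 135 in WT, -3.82). Its neighbour Cxcl2 had 75 reads in KO and 2314 in WT (0.690 in KO and 21.7 in WT, -3.74). Both are read by the same receptor on neutrophils. The monocyte chemokines Ccl2 and Ccl7 were at 4.60 and 1.08 in KO, compared with 22.97 and 3.58 in WT. The interleukin 1 system was lower on both sides of its receptor, with Il1b at 0.260 in KO and 2.03 in WT and the antagonist Il1rn at 3.32 in KO and 11.8 in WT. Against the rest, the interferon-γ chemokines Cxcl9 and Cxcl11 were higher, at 38.6 and 1.31 in KO, compared with 12.3 and 0.0155 in WT, whereas Cxcl10 was at 13.6 in KO and 21.8 in WT, within 2-fold.

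Genes that NF-κB switches on had 0 of 19 higher and 5 lower, with a median of -0.39. The adhesion molecule Icam1 was at 4.44 in KO and 24.9 in WT. The inhibitor Nfkbia, which NF-κB induces to shut itself off, was at 8.68 in KO and 22.8 in WT. The subunits Nfkb2 and Relb were at 9.52 and 4.19 in KO, compared with 22.5 and 9.56 in WT, and Ptgs2 at 0.455 in KO and 2.18 in WT. The subunit genes Rela (20.1 in KO and 19.5 in WT) and Nfkb1 (13.9 in KO and 20.1 in WT) stayed within 2-fold. The promoters of Cxcl1 and Cxcl2 are shown because both hold the same 11-base run, in capitals, which reads as the NF-κB motif (GGGA, any 2 bases, TTCC) on each strand with 2 overlapping matches.
Cxcl1 (chr5:90890995-90891294, plus strand): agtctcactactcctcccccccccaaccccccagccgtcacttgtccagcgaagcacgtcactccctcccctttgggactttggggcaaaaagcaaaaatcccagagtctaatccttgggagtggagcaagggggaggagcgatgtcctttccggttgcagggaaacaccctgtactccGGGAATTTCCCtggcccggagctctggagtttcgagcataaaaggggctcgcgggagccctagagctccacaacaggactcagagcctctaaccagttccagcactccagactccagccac
Cxcl2 (chr5:90903649-90903948, plus strand): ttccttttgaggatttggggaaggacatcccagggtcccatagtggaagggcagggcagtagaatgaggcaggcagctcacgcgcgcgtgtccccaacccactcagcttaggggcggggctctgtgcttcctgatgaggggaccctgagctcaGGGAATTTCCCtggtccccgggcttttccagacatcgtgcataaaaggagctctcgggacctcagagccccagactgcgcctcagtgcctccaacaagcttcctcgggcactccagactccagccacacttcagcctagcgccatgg
The run lies at positions -71 and -70 in Cxcl1 and at -97 and -96 in Cxcl2. The motif was chosen after the chemokine values were seen. It was in 10 of 158 lower genes with a promoter (6.33%), in 4 of 287 higher ones (1.39%), and in 1.76% of compared genes. Besides Cxcl1 and Cxcl2, the 10 included Nfkbia, Nfkb2, Tifa, Isg20, Csad and Msrb3. Since the 10 hold chemokines whose values were seen before the choice, these shares are a description and no test of the motif. The direct repeat that PPARα and other nuclear receptors bind (AGGTCA, any base, AGGTCA) was in 0 promoters of both called groups and in 0.0481% of all. It was in only 4 of the 8547 compared promoters, too few for the 0 to tell anything about the called genes. Promoters of Cyp4a14 and Cyp4a10 were not among those searched.

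Peroxisomal and other PPARα-controlled oxidation genes had 0 of 36 higher and 12 lower, with a median of -0.32. Ehhadh and Acaa1a, which carry the later steps of the peroxisomal spiral, were at 6.60 and 27.6 in KO, compared with 46.7 and 68.1 in WT. Ppara itself was at 2.45 in KO and 2.24 in WT, although its reads were fewer in KO (1050 against 1352 in WT). The thioesterases Acot1, Acot2 and Acot8 were at 1.67, 7.45 and 3.95 in KO, compared with 15.7, 16.9 and 9.42 in WT. In mitochondria, 0 of 25 genes of oxidation and ketogenesis were higher and 4 lower, with a median of -0.33. The carnitine carrier Slc25a20 was at 9.56 in KO and 20.8 in WT. Cpt1a, the entry step, was at 4.51 in KO and 4.26 in WT. Peroxisome assembly genes were mostly within 2-fold, with 0 of 15 higher and 1 lower.

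Methyl group metabolism was lower at several consecutive steps. The methionine cycle makes S-adenosylmethionine, the donor for methylation, and recycles homocysteine. Of 15 genes, 0 were higher and 4 lower, with a median of -0.30. Mat1a (chromosome 14, 41105012 to 41124428) had 14265 reads in KO and 83586 in WT, a CPM ratio of 0.174 (0.171 to 0.177). Ahcy, which splits S-adenosylhomocysteine, was at 62.7 in KO and 225 in WT (-1.83). The betaine-dependent enzymes Bhmt and Bhmt2 were at 211 and 5.00 in KO, compared with 624 and 11.97 in WT. Gnmt, the main liver methyltransferase that uses up the donor, was at 163 in KO and 289 in WT, short of 2-fold. The folate-dependent Mtr was at 3.65 in KO and 2.49 in WT, and Cbs, at the exit to cysteine, at 10.4 in KO and 11.9 in WT.

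Nitrogen disposal showed the same split between steps. In the urea cycle and ammonia list, 0 of 14 genes were higher and 4 lower, with a median of -0.30. These 4 were Cps1 (22.01 in KO and 69.8 in WT), Ass1 (91.5 in KO and 307 in WT), Asl (27.4 in KO and 114 in WT) and Arg1 (15.4 in KO and 76.3 in WT), which cover the cycle except for Otc. Otc was at 16.2 in KO and 14.3 in WT. Nags, which makes the activator of Cps1, was at 7.75 in KO and 9.99 in WT. Amino acid catabolism had 1 of 30 genes higher and 7 lower, with a median of -0.31 and 24 of 30 differences below 0. For tyrosine, Tat was at 14.9 in KO and 40.3 in WT and the next enzyme, Hpd, at 136 in KO and 301 in WT. In histidine breakdown, whose genes Hal and Amdhd1 lie within 10 Mb of Dusp6, the first enzyme Hal was higher (2.24 in KO and 0.417 in WT), while the later Amdhd1 (1.68 in KO and 6.81 in WT) and Ftcd (7.73 in KO and 17.4 in WT) were lower. The taurine-forming enzymes Cdo1 and Csad were at 22.6 and 10.6 in KO, compared with 51.5 and 25.6 in WT. Nnt, which supplies mitochondrial NADPH, was also lower (3.68 in KO and 9.18 in WT) and was named after its value was seen.

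Major urinary proteins are small pheromone carriers that mouse liver secretes under growth hormone, from a cluster of near-identical genes on chromosome 4. Of 21 compared Mup genes, 16 were lower and 0 higher, with a median of -1.48. Together they held 3.63% of reads in KO (3097848) and 8.91% of reads in WT (7771638). Mup19 was at 1209 in KO and 4532 in WT, and Mup1 at 2316 in KO and 6923 in WT. The other 5 were named after their values were seen. The most abundant copy, Mup7, was at 4832 in KO and 9089 in WT (-0.91), and Mup6 at 1.91 in KO and 4.58 in WT. Mup3 was at 2518 in KO and 1839 in WT, Mup20 at 638 in KO and 731 in WT, and Mup21 at 105 in KO and 61.4 in WT. Reads shared between copies make single values uncertain, and the sum of the family is the firmer figure. Genes of the growth hormone axis did not share the direction: the receptor Ghr was at 36.3 in KO and 21.7 in WT, Igf1 at 17.3 in KO and 8.71 in WT, and Socs2 at 7.37 in KO and 3.37 in WT, all short of 2-fold. On the TPM scale, which moves the median gene up, these lay past 2-fold.

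Several groups of secreted plasma proteins were higher in KO. Complement had 13 of 24 genes higher and 0 lower, with a median of 1.03. The terminal components that form the membrane pore were led by C8a (82.7 in KO and 9.86 in WT, 2.95), C9 (95.3 in KO and 18.8 in WT, 2.29) and C8b (55.5 in KO and 19.8 in WT, 1.44). C6 was at 26.3 in KO and 9.94 in WT. The third chain of C8, C8g, was at 87.6 in KO and 86.0 in WT, so its 3 chains were not alike. The pore inhibitors clusterin (Clu) and vitronectin (Vtn) were higher too, at 1312 and 547 in KO, compared with 541 and 220 in WT. The regulator Cfi was at 84.97 in KO and 40.8 in WT. In the classical and lectin routes, C1s1 (41.1 in KO and 18.1 in WT), C4b (159 in KO and 71.3 in WT), Mbl1 (27.2 in KO and 11.7 in WT) and Masp1 (8.09 in KO and 3.27 in WT) were higher. C3, the hub of all routes, was at 698 in KO and 365 in WT (0.93), and Cfb at 208 in KO and 176 in WT.

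**Figure D3:**
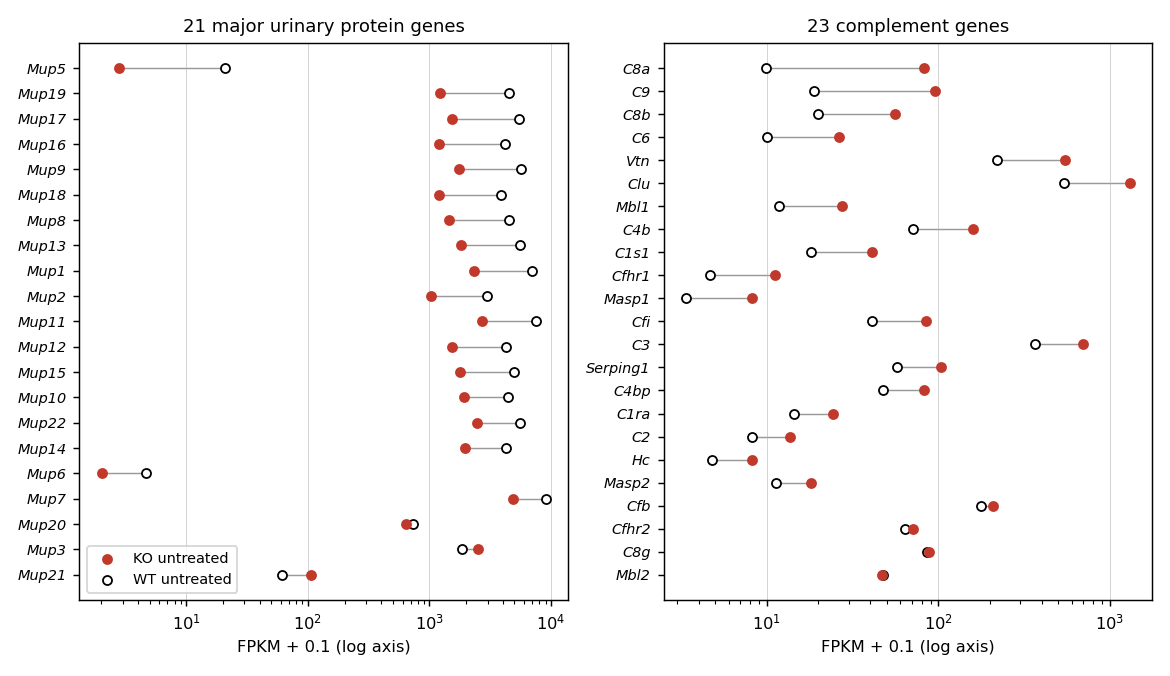
FPKM + 0.1 (log axis) of 21 major urinary protein genes and 23 of the 24 complement genes in the KO library (filled) and the WT library (open), untreated, ordered by difference. Most Mup genes lie at a lower value in KO, with Mup3 and Mup21 the other way, and the complement genes lie at a higher value in KO down to C8g and Mbl2, whose points overlap.

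Coagulation factors had 7 of 23 genes higher and 0 lower, with a median of 0.73. The zymogens F11 (4.97 in KO and 0.914 in WT, 1.64) and plasminogen, Plg (143 in KO and 54.0 in WT, 1.39), had the largest differences in this list, which leaves out fibrinogen. Anticoagulants were also among the higher genes, namely Proc (34.4 in KO and 15.9 in WT), its cofactor Pros1 (15.6 in KO and 6.94 in WT) and heparin cofactor Serpind1 (11.3 in KO and 3.97 in WT). Prothrombin (F2) and F9 were within 2-fold, at 279.6 and 23.4 in KO, compared with 241 and 21.2 in WT. Of the 3 fibrinogen chains, Fga was at 413 in KO and 150 in WT (1.46), while Fgb (1091 in KO and 699 in WT) and Fgg (694 in KO and 455 in WT) stayed within 2-fold.

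Of the 5 compared Serpina1 copies, which code for α1-antitrypsin, 1 was past 2-fold. This was Serpina1e, at 2236 in KO and 261 in WT (3.09). The family held 921235 reads in KO and 459909 in WT. In the neighbouring Serpina3 cluster, Serpina3c (0.407 in KO and 40.02 in WT, -4.87) and Serpina3f (0.132 in KO and 3.95 in WT, -2.13) were lower, whereas the abundant Serpina3k was higher (2644 in KO and 1005 in WT, 1.40). Reads of these close copies may be divided in uncertain ways.

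Lipid synthesis went the other way from oxidation. Fatty acid and triglyceride synthesis had 8 of 28 genes higher and 0 lower, with a median of 0.77. Beside Scd1, Acaca and Fasn, the citrate carrier Slc25a1 was at 84.8 in KO and 39.98 in WT and Acss2, which activates acetate, at 10.98 in KO and 4.40 in WT. The elongases Elovl1 and Elovl3 were at 19.9 and 21.0 in KO, compared with 6.88 and 7.77 in WT. Cholesterol synthesis had 6 of 25 genes higher and 0 lower, with a median of 0.61. Apoa4, an apolipoprotein of the fasted mouse liver, was lower (42.2 in KO and 161 in WT, -1.91), and Apom, which carries sphingosine 1-phosphate, was higher (85.2 in KO and 35.4 in WT, 1.24). The FPKM and the reads of Apoe gave opposite directions, with an FPKM of 2754 in KO and 1524 in WT but 348519 reads in KO and 418352 in WT, so no direction is given for it.

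Enzymes of drug and ester metabolism were higher in blocks of related copies. Carboxylesterases, which hydrolyse drugs and neutral lipids, had 4 of 11 genes higher and 0 lower (median 0.68). Ces1g was at 8.24 in KO and 1.79 in WT, Ces2e at 27.9 in KO and 7.91 in WT, and Ces3a at 403 in KO and 198 in WT. The list of glutathione genes and targets of the factor NRF2 had 6 of 38 higher and 1 lower, with a median of 0.19. Among the μ-class glutathione transferases, picked after their values were seen, 5 of 7 Gstm genes were higher and 0 lower. This class held 75258 reads in KO and 36015 in WT. The θ-class gene Gstt2 was lower (3.83 in KO and 14.7 in WT). Gstm2, Gstm3 and Gstm7 were at 55.5, 50.3 and 6.89 in KO, compared with 11.4, 10.7 and 1.40 in WT. The oxidative stress genes Nqo1 (32.6 in KO and 23.1 in WT) and Gclc (276 in KO and 233 in WT), usual readouts of the factor NRF2, were within 2-fold. Of 34 Cyp2 and Cyp3a genes, 10 were higher and 3 lower, with Cyp2a4 at 26.0 in KO and 7.16 in WT and Cyp2d40 at 31.3 in KO and 9.36 in WT.

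Cell contact and matrix genes were higher in part. Junction genes had 6 of 23 higher and 0 lower, with a median of 0.41. The desmosomal genes Dsg2, Dsc2 and Jup were at 22.4, 31.6 and 18.3 in KO, compared with 6.19, 13.5 and 6.08 in WT. Cdh1, the epithelial cadherin that marks periportal hepatocytes, was at 4.09 in KO and 0.577 in WT. Periportal genes as a list had 3 of 14 higher and 6 lower (median -0.21). Pericentral genes had 5 of 15 higher and 0 lower (median 0.18). Claudins differed among themselves, with Cldn3 at 81.6 in KO and 33.7 in WT and Cldn4 at 69.7 in KO and 20.1 in WT, but Cldn1 at 3.05 in KO and 5.87 in WT. Matrix genes had 5 of 13 higher and 0 lower (median 0.83). Thbs1, a matrix glycoprotein, was at 19.2 in KO and 4.05 in WT, and the protease inhibitor Timp3 at 7.33 in KO and 1.93 in WT. Ccn2, a target of YAP and TGFβ signalling, was at 132 in KO and 9.56 in WT.

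BMP signalling sets hepcidin and the Id genes in hepatocytes through SMAD proteins. In that list 4 of 16 genes were higher and 0 lower, with a median of 0.59. Id1 had 1541 reads in KO and 97 in WT (CPM ratio 16.2, interval 13.2 to 20.1). The receptor Acvr1 was at 25.7 in KO and 8.96 in WT, and the feedback inhibitor Smad7 at 7.47 in KO and 3.62 in WT, short of 2-fold. Hepcidin (Hamp), the hormone that blocks iron export, was at 76.3 in KO and 25.2 in WT (1.56). Its coreceptor gene Hjv was at 1.39 in KO and 0.231 in WT, a CPM ratio of 6.17 (4.52 to 8.60) that falls short of 2-fold after the pseudocount. The ligand Bmp6 was under an FPKM of 1 in both libraries.

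Growth and stress lists differed in direction. Cell cycle genes had 3 of 18 higher and 0 lower, with Ccne1 at 7.16 in KO and 2.11 in WT and Mcm6 at 23.9 in KO and 10.8 in WT. Mki67, a marker of dividing cells, was at 0.0467 in KO and 0.0215 in WT. The list of p53 targets and Gadd45 genes had 0 of 21 higher and 4 lower (median -0.56), among them the p53 target Eda2r (4.03 in KO and 11.5 in WT) and the stress gene Gadd45b (12.3 in KO and 39.1 in WT). The p53 targets Cdkn1a (41.4 in KO and 35.4 in WT) and Mdm2 (46.4 in KO and 92.0 in WT) were within 2-fold. The heat shock genes Hspa1a and Hspa1b were lower, at 2.66 and 7.61 in KO, compared with 6.81 and 25.3 in WT, as 2 of 16 in their list. Genes induced by ERK had 5 of 24 higher and 1 lower, and their median of -0.01 lay below the median gene under every scaling tried but above it with a filter at an FPKM of 5. With fatty acids, 0 of these 24 were higher and 9 lower relative to the median gene, with a median of -0.61. Etv4, Etv5, Spry2 and Spry4, a usual readout of ERK output, ranged from 0.229 to 0.909 FPKM in KO and from 0.0207 to 1.54 FPKM in WT. At these low levels no direction is given for them as a group.

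**Figure D4:**
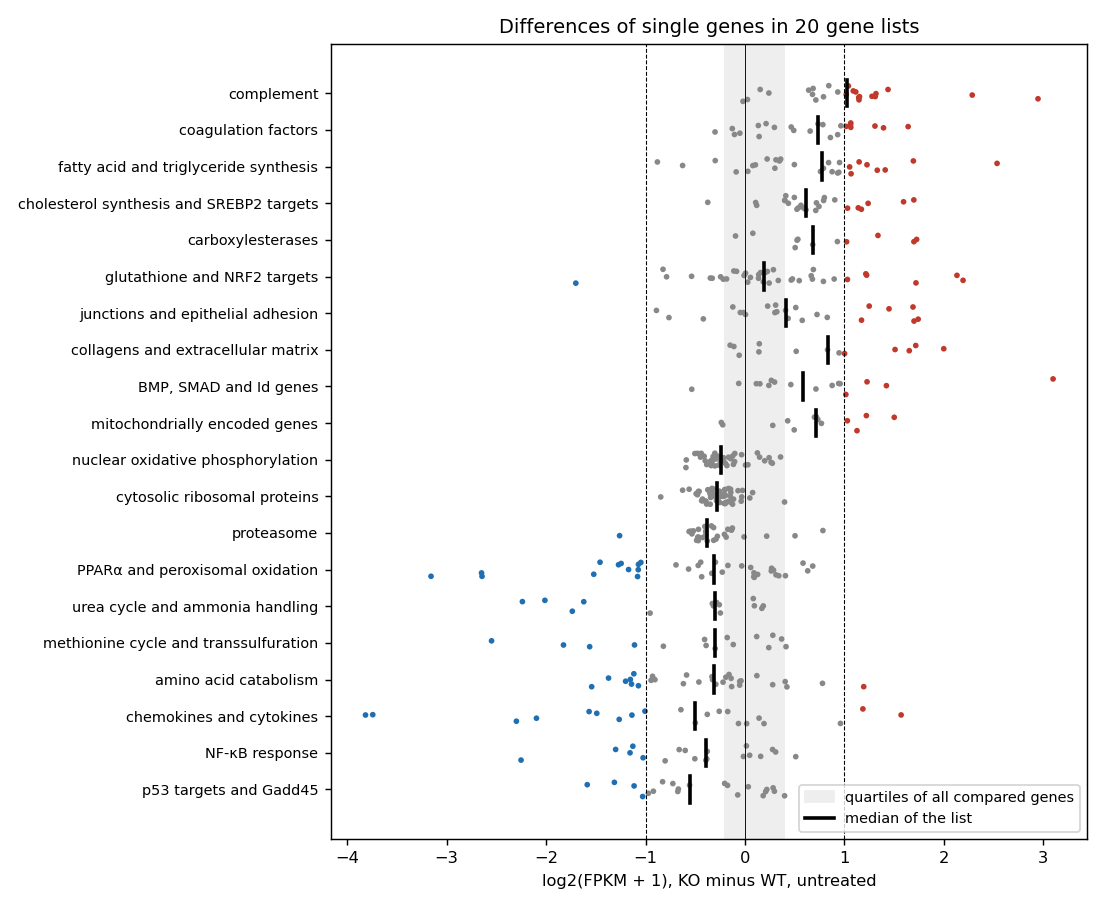
Difference in log2(FPKM + 1), KO minus WT, untreated, of each compared gene (points) in 20 gene lists, with the list median (black bar), the quartiles of all compared genes (grey band) and 2-fold limits (dashed). Complement lies furthest right with a median of 1.03, and p53 targets and Gadd45 genes furthest left with -0.56; ribosomal, proteasome and nuclear oxidative phosphorylation genes cluster narrowly left of the band's centre.

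Nuclear genes for the machinery common to most cells seldom passed 2-fold. Their list medians, -0.24 to -0.38, were of the size of those of the PPARα, methionine and urea cycle lists, -0.30 to -0.32. Nuclear genes of oxidative phosphorylation had 0 of 43 past 2-fold either way, with a median of -0.24. Cytosolic ribosomal proteins had 0 of 59 past 2-fold, a median of -0.28 and 56 of 59 differences below 0. On the TPM scale these medians were 0.06 and 0.03, below the median gene at 0.37 there. Proteasome subunits had 0 of 31 higher and 1 lower, with a median of -0.38. The lower one was Psma3, whose CPM gave a ratio of only 0.766 in KO over WT. The mitochondrial genome's own genes had 4 of 13 higher and 0 lower, with a median of 0.72. ND4 was at 123 in KO and 42.7 in WT, CYTB at 189 in KO and 80.6 in WT, and ND5 at 98.7 in KO and 47.9 in WT. The most abundant, COX1, was at 4838 in KO and 3987 in WT. All mitochondrial transcripts together took 2.11% of reads in KO and 1.82% of reads in WT.

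Several groups of small or repeated genes also differed, and were picked after their values were seen. The H2al1 histone variants, close copies that are otherwise typical of testis, had 8 of 11 genes higher, with 4895 reads in KO and 1378 in WT. Replication-dependent H2b histones had 4 of 14 lower and 0 higher. The U3 small nucleolar RNA copies Rnu3b1 to Rnu3b4 were higher, with 4647 reads in KO and 1061 in WT, but all 4 were lower in KO with fatty acids (median -1.46). The ribosomal RNA copy Rn18s-rs5 had 101973 reads in KO and 5188 in WT, a difference of 4.24, and lay at -2.05 with fatty acids. The signal recognition particle RNAs took 3.94% of reads in KO and 6.20% of reads in WT. How ribosomal RNA removal acted in each library was not tested.

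Markers of other liver cells were also unequal. Macrophage markers had 5 of 16 compared genes higher and 0 lower, and the summed FPKM of all 19 was 214 in KO and 118 in WT. The 5 were Clec4f, Cd5l, C1qa, C1qb and C1qc, while Adgre1 (3.20 in KO and 4.43 in WT), Marco (3.45 in KO and 4.83 in WT) and Ptprc (1.80 in KO and 2.41 in WT) were not. Sinusoidal endothelial markers had 5 of 8 compared genes higher and 0 lower, with a summed FPKM of 33.1 in KO and 11.5 in WT over all 16. Stab2 and Lyve1, defining markers of these cells, were at 0.629 and 0.281 in KO, compared with 0.321 and 0.251 in WT. The cholangiocyte list summed to 24.6 in KO and 7.36 in WT, mostly Spp1, with 4 of 10 markers at 0 reads in KO and 5 in WT. Stellate cell and fibroblast markers summed to 2.39 in KO and 0.464 in WT with no gene reaching an FPKM of 1, and mesothelial markers to 0.00925 in KO and 0 in WT. The lymphocyte, neutrophil and red cell lists summed to 13.7, 7.02 and 62.0 in KO, compared with 6.93, 4.77 and 70.7 in WT. The part of these cells in the higher complement, matrix, BMP and interferon genes was not tested. In bulk RNA, more cells of a type and more RNA per cell cannot be told apart.

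Interferon-stimulated and antigen presentation genes had 6 of 34 higher and 1 lower. Their median of 0.07 changed side of the median gene with scaling, so no direction is given for the list. Isg15 was at 9.74 in KO and 1.90 in WT, Irf7 at 10.6 in KO and 3.16 in WT, and Igtp at 11.1 in KO and 3.93 in WT. Of the guanylate-binding proteins, which attack intracellular pathogens, Gbp2b had 2974 reads in KO and 0 in WT and Gbp3 was at 11.1 in KO and 3.83 in WT.

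Gbp2b was 1 of 11 genes with at least 100 reads in KO and 0 in WT, of which 7 also had 0 reads in WT with fatty acids. Beside it and the non-coding RNA Urml (4017 reads in KO and 0 in WT), these were Gnasas1 (353), Pakap (324), Serpina3e-ps (268), Schip1 (168), Col5a2 (153), Ltbp4 (148), Greb1l (142), Col9a2 (108) and Piezo2 (107), with reads in KO in brackets and 0 in WT. Only 4 of the 11, Gbp2b, Urml, Gnasas1 and Serpina3e-ps, reached an FPKM of 1 in KO and were compared. The rest were low there, down to 0.095 for Piezo2. Against a floor of 3 reads in WT, the CPM ratio was 1013 for Gbp2b and 1368 for Urml. The exact lower limits, computed from the 0 reads themselves, were 823 and 1112. Pakap had 0 reads in both fatty acid libraries. The strain of the KO and WT mice is not stated, and each group has 1 library. A difference in strain, animal or culture and the loss of Dusp6 therefore cannot be told apart. This holds for these genes and Nnt and for every other difference given here. Another 7 genes had 0 reads in KO and at least 100 in WT, of which 6 are predicted genes and 2 also had 0 reads in KO with fatty acids. The named one was Fmr1nb, with 0 reads in KO and 101 in WT, and it had 0 reads in KO with fatty acids too, against 119 in WT with fatty acids.

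The fatty acid pair gave a second look at the same genotypes, since it shares no library with the untreated pair. Whether it shares animals with them is not stated. The differences in it are given relative to the median gene, which lay at 0.38 on the deposited scale. Over the same 11524 genes, 371 were higher (3.22%) and 853 lower (7.4%) in KO with fatty acids. Without centring the balance was the other way, with 1159 higher and 430 lower. Of the 249 genes lower in untreated KO, 185 were lower here too, which is 74.3% of the untreated and 21.7% of the fatty acid list. Of the 426 higher genes, 145 were higher here too, 34% of the untreated and 39.1% of the fatty acid list. Without centring, 160 of the 249 and 214 of the 426 were past 2-fold the same way. After centring, the sign was kept by 242 of the 249 lower genes (97.2%) and 331 of the 426 higher genes (77.7%). Of all compared genes, 54.2% lay below 0 and 45.8% above 0. Past 4-fold untreated, 31 of 33 lower genes and 32 of 41 higher genes were also past 2-fold in the fatty acid pair. An additive edgeR fit over all 4 libraries has 1 residual degree of freedom. It called 261 genes higher (2.26%) and 307 lower (2.66%) in KO at an adjusted p under 0.05. The fit includes the untreated libraries, so it is not separate from the untreated calls.

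The groups differed in how far they held in the second pair. PPARα and peroxisomal genes had 13 of 36 lower there, 9 of them the same as untreated, and the 4 urea cycle genes were lower in both. Of 9 chemokine and cytokine genes lower untreated, 8 were lower in both pairs, and all 5 NF-κB genes were. Macrophage markers in that pair had 1 of 16 higher and 6 lower (median -0.21), against 5 higher and 0 lower untreated, and their part in the lower chemokines was not tested. Il23a was at 0.192 in KO and 140.1 in WT with fatty acids. Mup genes had 18 of 21 lower with fatty acids. Complement had 3 of 24 higher there, against 13 untreated, with a median of 0.49, and matrix genes had 0 of 13 higher. Coagulation factors had 1 of 23 higher there, carboxylesterases 0 of 11, BMP and Id genes 1 of 16 and junction genes 3 of 23, fewer than untreated in each list. The carboxylesterase median nevertheless stayed close, at 0.63 there and 0.68 untreated. Medians of the coagulation, BMP and junction lists were 0.18, -0.01 and -0.08 there, compared with 0.73, 0.59 and 0.41 untreated. Cholesterol synthesis had 13 of 25 higher there. Fatty acid and triglyceride synthesis had 7 of 28 higher and 3 lower there (median 0.54), and 4 genes were higher in both pairs. The endothelial markers had 0 of 8 higher there, with a median of -0.30. Mitochondrially encoded genes had 0 of 13 higher and 5 lower there, with a median of -0.92. No test separates these pairs, since each holds 1 library a side.

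**Figure D5:**
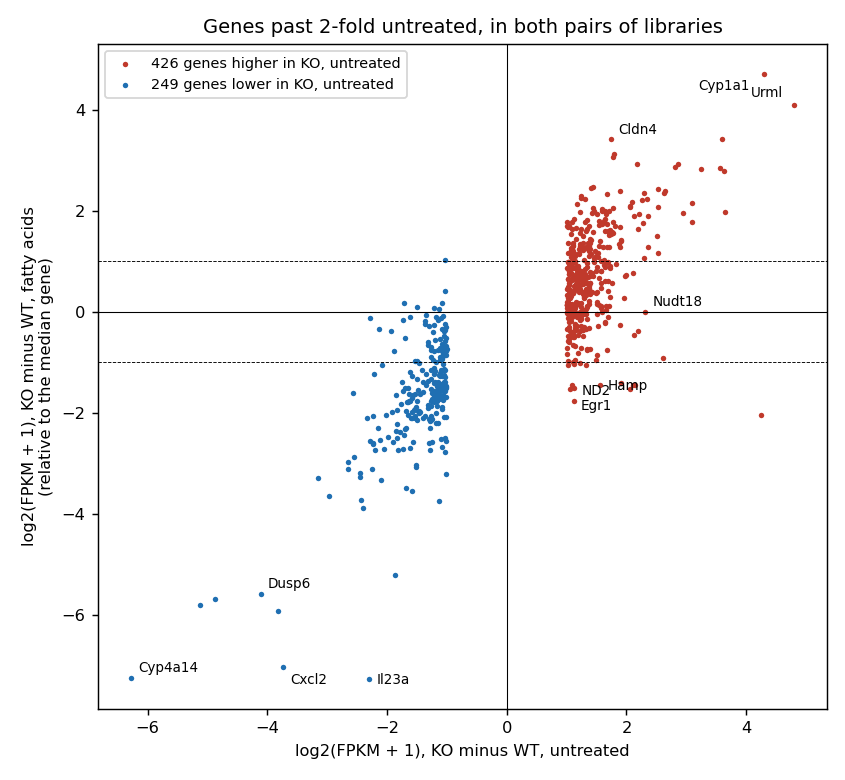
Difference in log2(FPKM + 1), KO minus WT, of the 675 genes past 2-fold in untreated cells (horizontal) and of the same genes with fatty acids, relative to the median gene (vertical). Each point is a gene, and dashed lines mark 2-fold; 185 of 249 lower genes lie under the lower dashed line and 145 of 426 higher genes over the upper one, with Hamp, Egr1 and ND2 on opposite sides in the pairs.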

How the data were processed

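Per the labels' protocols, RNA was column-purified, treated with DNase and made into libraries with a stranded total RNA kit. The submitters' processing notes name Trimmomatic 0.38, HISAT2 2.1.0, StringTie 2.1.3b and mm10 without giving their roles; the annotation and the strand setting of the counting are not stated, so reads of a gene and of an antisense or overlapping neighbour may be mixed. The authors deposited raw read counts, FPKM and TPM per gene, per the file headers. From these, log2(FPKM + 1) was compared between single libraries with a rule of 2-fold, reads gave exact binomial intervals (a floor of 3 reads replaced 0), and the fatty acid pair was centred on the median gene. Named genes were Dusp6, the Cyp4a genes, the 20 highest and 20 lowest differences at an FPKM of at least 5 (without predicted genes, pseudogenes and small RNAs), up to 6 members of each described list plus those completing a complex or pathway, markers, and genes read in 1 genotype only; further genes named within a list to show the pathway's other steps were chosen after their values were seen. A few of these are not reported here. The members and the 62 lists (1422 genes, 1163 compared) were chosen with earlier results of these data known. Coordinates and promoters are RefSeq, joined on Entrez identifiers (99.8% of compared genes). Python 3.11.15, pandas 2.3.3, numpy 2.4.6, scipy 1.17.1, R 4.3.3 and edgeR 4.0.16 were used; the size rule was checked on simulated data.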

Additional observations from a re-analysis of the deposited data

Results flagged for a closer look

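In 9 named genes, KO lay past 2-fold on opposite sides of WT in the untreated pair and in the fatty acid pair. Only the fatty acid differences are relative to the median gene. The difference between the pairs was not tested, since each holds 1 library a side. Hepcidin (Hamp) differed by 1.56 untreated (76.3 FPKM in KO and 25.2 in WT) and by -1.45 with fatty acids relative to the median gene. Egr1, an immediate early gene of ERK signalling, differed by 1.12 untreated (9.27 in KO and 3.73 in WT) and by -1.77 with fatty acids. The mitochondrial genes CYTB and ND2 differed by 1.22 and 1.13 untreated and by -1.01 and -1.51 with fatty acids. With fatty acids, CYTB was at 118 FPKM in KO and 183 in WT, past 2-fold only after centring. The ribosomal RNA copy Rn18s-rs5 differed by 4.24 untreated and by -2.05 with fatty acids. The U3 RNA copies Rnu3b1, Rnu3b2, Rnu3b3 and Rnu3b4 differed by 1.91, 2.104, 2.05 and 2.14 untreated and by -1.41, -1.46, -1.53 and -1.46 with fatty acids. Among all 11524 compared genes, 15 crossed sides in this way, 14 of them higher untreated. Without centring, 10 genes higher untreated were past 2-fold lower with fatty acids, and 1 gene lower untreated was past 2-fold higher.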

How the results depend on the processing

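No test has replicates here, so values show the size of a difference in 1 pair of libraries. The count of 426 higher and 249 lower genes became 910 and 421 with a pseudocount of 0.1, 141 and 98 with 5, and 1638 and 784 with a 1.5-fold rule; a smaller pseudocount or limit passes more genes by construction. TPM gave 1248 higher and 176 lower genes, with the median gene at 0.37. Filtering at an FPKM of 5, quantile normalization, TMM scaling, median-of-ratios scaling and dropping pseudogenes, small RNAs and predicted genes kept both counts within 1.5 times. Dropping the filter returned the same counts by construction, since no gene under 1 in both libraries can pass the limit. An additive edgeR quasi-likelihood fit of all 4 libraries had terms for genotype and fatty acids and 1 residual degree of freedom. At adjusted p under 0.05 it called 261 genes higher (2.26%) and 307 lower (2.66%). These included 198 of the 426 and 184 of the 249. The fit uses the untreated libraries that made those calls, so this overlap is partly built in. The cause of the fewer higher calls was not tested. No named gene past 2-fold changed sign, and 117 of 247 such genes kept the call under every scaling and pseudocount; 112 fell short with a pseudocount of 5, among the 40 top genes Il23a alone (-0.999). Relative to the median gene, 8 lists changed side: interferon, apolipoprotein, phosphatase, gluconeogenesis and conjugation genes with at least 1 normalization, ERK genes with the filter at 5, and ATF4 genes and lymphocyte markers with a pseudocount of 0.1. No paired analysis was possible because the labels number no replicates that pair libraries; the additive fit sets KO against WT within each culture condition.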

Other observations

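Several further lists held a few genes past 2-fold in the untreated pair. Of all compared genes, 3.7% were higher and 2.16% lower, so such small counts describe single genes and not the lists. Glycolysis and the pentose phosphate pathway had 2 of 21 genes higher and 0 lower, the phosphofructokinase Pfkl (5.62 FPKM in KO and 1.95 in WT) and the pyruvate kinase Pkm (61.8 in KO and 28.4 in WT). Gluconeogenesis and insulin response genes had 1 of 16 higher and 2 lower, with 8 differences above 0 and 8 below. The gluconeogenic gene Pck1 was among the lower ones, at 0.878 in KO and 3.58 in WT. Lysosomal genes had 2 of 29 higher and 0 lower, among them the glycoprotein gene Gpnmb (15.9 in KO and 3.93 in WT).

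Bile acid genes had 1 of 22 higher and 3 lower. Cyp2c70, which makes mouse-specific muricholic acids, was at 46.3 in KO and 4.02 in WT. The conjugating enzyme Baat (4.15 in KO and 10.97 in WT) and the phospholipid exporter Abcb4 (17.1 in KO and 37.8 in WT) were lower. Among lipid droplet proteins, Cidea was higher (4.26 in KO and 0.416 in WT), and Plin5 (1.17 in KO and 3.68 in WT) and Cidec (17.1 in KO and 36.3 in WT) were lower. The fatty acid binding protein Fabp5 was higher (224 in KO and 88.8 in WT) and Fabp2 lower (17.8 in KO and 41.0 in WT). Circadian clock genes had 0 of 16 higher and 1 lower, Ciart (1.83 in KO and 5.29 in WT).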
